A study of Mus musculus with 11 samples.

Results

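The homeobox genes of the Dlx and Msx families were followed across wild-type, *Cilk1*-/- and compound mutant maxillary molar germs of mouse embryos at embryonic day (E) 14.5. The members were taken by symbol from the deposited table, and all 8 genes (*Dlx1* to *Dlx6*, *Msx1* and *Msx2*) were listed among its 16755 genes. The wild-type embryos were *Cilk1*+/+ littermates. The *Cilk1*-/- embryos lacked exon 6 of *Cilk1*, a kinase of the primary cilium, after recombination by *EIIa-Cre* in germ cells, so that the deletion was present in every tissue. The compound mutant embryos (*Cilk1*-/-;PCS1-MRCS1 knockout, homozygous) carried the same deletion together with loss of the interval from PCS1 to MRCS1, which holds distant enhancers of *Shh*. No PCS1-MRCS1 deletion alone was sequenced, and all mice were kept on the C57BL/6 background without regard to sex. The wild type and *Cilk1*-/- had 4 libraries each and the compound mutant had 3, with n = 6 per biological replicate, and the sources do not say whether that number counts germs or embryos.

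Dlx and Msx proteins bind DNA through a homeodomain, a fold of a few helices of which the last lies in the major groove. The Dlx genes lie in convergent pairs, and in the branchial arches the nested expression of the pairs helps to set the identity of jaw parts. *Dlx1* and *Dlx2* act in the mesenchyme of the upper jaw, where their joint loss removes the maxillary molars, and *Dlx5* and *Dlx6* are best known for giving the lower jaw its identity. *Dlx3* and *Dlx4* are the third pair, and *Dlx3* is needed for the hard tissues of teeth and hair. *Msx1* acts in the dental mesenchyme downstream and upstream of *Bmp4*, and teeth arrest at the bud stage without it. *Msx2* is expressed in epithelium and mesenchyme, including the enamel knot, and acts in later cusp and enamel formation.

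The positions are those of GENCODE vM21 on GRCm38. *Dlx1* (chr2:71528113-71533981, plus strand) and *Dlx2* (chr2:71543408-71546754, minus strand) were 9426 bp apart. *Dlx6* (chr6:6863334-6868568, plus strand) and *Dlx5* (chr6:6877805-6882085, minus strand) were 9236 bp apart. *Dlx3* (chr11:95120119-95125296, plus strand) and *Dlx4* (chr11:95140447-95146263, minus strand) were 15150 bp apart. *Msx1* (chr5:37820485-37824583) and *Msx2* (chr13:53466884-53473074) each stood alone, both on the minus strand.

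The homeobox sequences of the members show how alike they are and bear on how far their reads can be kept apart. Over the 180 bases that encode the 60 residues of the homeodomain in the GENCODE vM21 transcripts, *Msx1* and *Msx2* were 82.2% identical, Dlx genes were 66.1% to 81.7% identical to each other, and Dlx genes were 54.4% to 65.0% identical to Msx genes. The longest run of identical bases between any of the 28 pairs, sought over whole transcripts and not the box alone, was 44 bp. It was between *Dlx6* and *Msx2*, whose boxes were 56.7% identical. The last 60 bases of the box encode most of the helix that contacts DNA, and 32 of them were shared by all 8 members.

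Promoter sequence from RefSeq (GRCm38.p6) was matched for 4 of the 8 members, *Dlx1*, *Dlx2*, *Msx1* and *Msx2*. Each window holds the 250 bases before the RefSeq start. That of *Msx1* (chr5:37824586-37824835, minus strand) is shown because *Msx1* had the highest level of the members and its window lies outside the GENCODE gene. The windows of *Dlx1* and *Msx2* lie inside the GENCODE span of their gene, as the RefSeq start is further downstream, and are not shown. Capitals mark matches on either strand to the CCAAT box CCAAT, and the sequence is written 5′ to 3′ on the strand of the gene.
Msx1: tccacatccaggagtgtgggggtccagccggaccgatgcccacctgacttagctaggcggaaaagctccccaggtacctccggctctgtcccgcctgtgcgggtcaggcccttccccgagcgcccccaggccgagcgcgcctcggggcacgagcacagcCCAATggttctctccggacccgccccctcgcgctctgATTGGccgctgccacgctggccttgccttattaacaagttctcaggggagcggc
The *Msx2* window held 3 matches to the homeodomain core TAATT, searched on both strands, of which the overlapping pair in TAATTA lies on opposite strands. The *Dlx1*, *Dlx2* and *Msx1* windows held 0, and 25.0% of 32851 promoter windows of the same length held at least 1. CCAAT had 2 matches in *Msx1*, 1 in *Msx2*, 1 in *Dlx2* and 0 in *Dlx1*, against 33.8% of windows with any. The GLI letters GACCACCCA were found in 0 of these 4 windows and in 0.225% of all windows. These matches describe letters, and binding was not measured.

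The values are on a log2(value + 1) scale, where the value was probably FPKM, so that levels of different genes can be set side by side per length. In wild type, *Msx1* had the highest level of the 8, at 7.56 ± 0.22 (SD, n = 4), above 98.7% of all listed genes. *Dlx2* followed at 5.90 ± 0.15 and *Dlx1* at 5.61 ± 0.15, a pair whose libraries overlapped. *Dlx5* was at 4.76 ± 0.28 and *Dlx3* at 4.58 ± 0.27, also with overlap, as *Dlx5* was the higher in 2 of 4 libraries. *Msx2* was at 3.59 ± 0.23. *Dlx6*, at 2.25 ± 0.23, and *Dlx4*, at 1.81 ± 0.33, were lowest and overlapped, although *Dlx6* was the higher in 4 of 4 libraries. In the linear value, the mean of *Msx1* was 189 and that of *Dlx4* 2.59. The genes of a pair were thus near each other in level for *Dlx1* and *Dlx2* but not for *Dlx5* and *Dlx6* or for *Dlx3* and *Dlx4*. In *Cilk1*-/- the order of the means was the same, but *Msx2* came near *Dlx3*, at 4.12 ± 0.22 and 4.21 ± 0.12 (SD, n = 4), with *Dlx3* higher in 2 of 4 libraries. In the compound mutant, *Msx1* was still separate from the rest, whereas *Dlx1* and *Dlx5* overlapped.

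**Figure D1:**
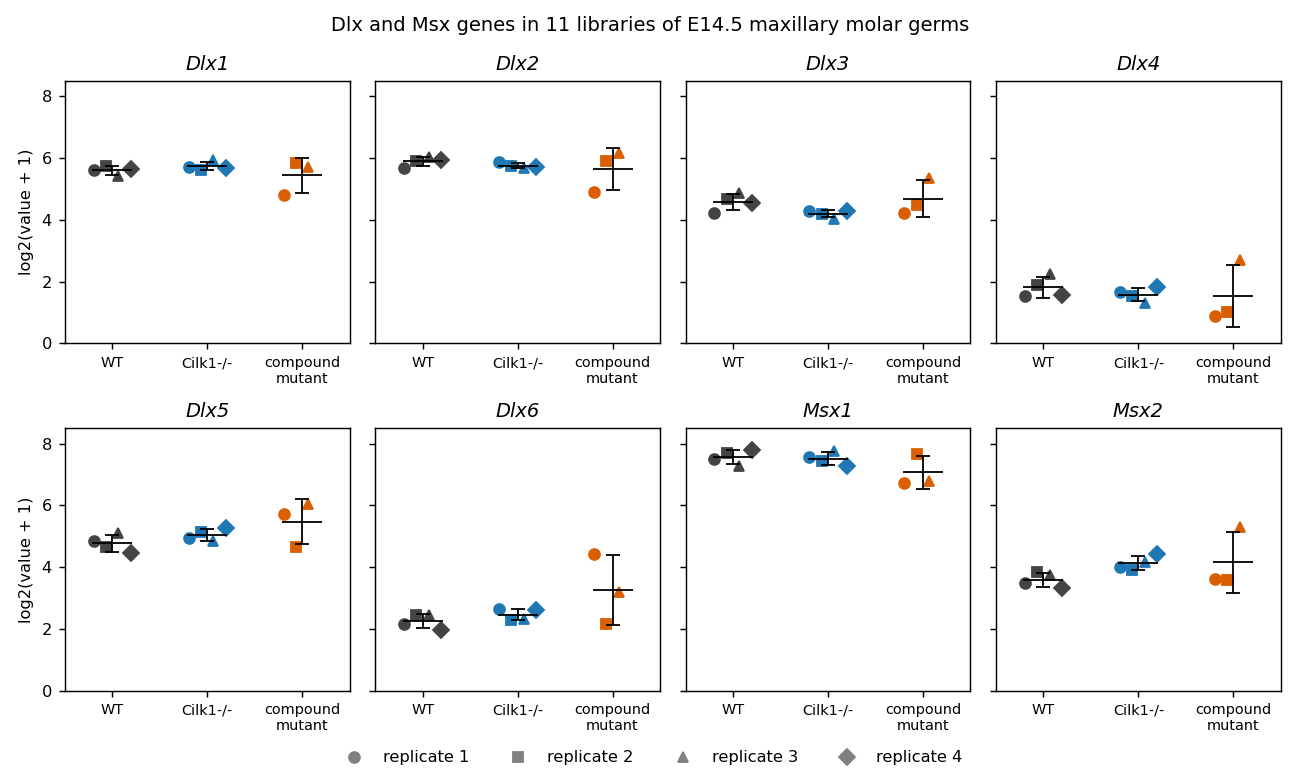
Level of each Dlx and Msx gene in every library, as log2(value + 1) on the vertical axis, with genotypes on the horizontal axis. Points are libraries with symbols for the replicate number, and bars give the mean and SD (n = 4, 4 and 3). The 3 compound mutant libraries are spread wider than the other genotypes for all 8 genes, and *Msx2* is the gene whose 4 *Cilk1*-/- points lie above all 4 wild-type points.

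Before the genotypes are compared, some features of the libraries need to be stated. The labels describe the libraries in 2 sets with different protocol texts. All 3 compound mutant libraries and replicate 4 of wild type and of *Cilk1*-/- are in one set, and replicates 1 to 3 of wild type and *Cilk1*-/- are in the other. The compound mutant is thus largely confounded with its set. *Cilk1*, listed as *Ick*, followed the labels, as it was between 3.45 and 3.60 in wild type, between 2.72 and 2.86 in *Cilk1*-/- and between 2.60 and 2.67 in the compound mutant. Markers of dental epithelium and dental mesenchyme were listed for 8 of 8 and 9 of 9 genes, with none at 0 throughout a genotype. Compound mutant replicates 1 and 3 stood apart. The first principal component of all genes (41.6% of the variance) had replicate 1 at −48.5 with the other 10 libraries between −6.63 and 11.2. The second (21.8% of the variance) had replicate 3 at −28.9 with the other 10 between −11.8 and 13.5. In replicate 1 the summed level of 6 listed cartilage markers was 625, against 23.7 to 49.5 in the other 10, that of 7 neuron markers was 210.0, against 17.5 to 61.8, and that of 8 dental epithelium markers was 686, against 1005 to 1569. Compound mutant replicate 3 had the lowest erythroid sum, 757 against 2113 to 3028 elsewhere. Neuron sums were 17.5 to 23.6 in wild type and 29.1 to 35.7 in *Cilk1*-/-, and those of 6 Schwann cell markers were 17.6 to 19.9 and 20.8 to 23.7, so that neither overlapped between these genotypes. Skeletal muscle sums were 3.93 to 5.06 in the compound mutant, 6.26 to 21.3 in wild type and 14.2 to 38.4 in *Cilk1*-/-. Sums for dental mesenchyme (1603 to 2305), macrophages (27.4 to 43.3), endothelium (78.4 to 102) and the 2 listed of 7 forebrain interneuron markers (0.824 to 5.85) are given as ranges over the 11 libraries. The lowest dental mesenchyme sum was that of compound mutant replicate 1, and the next lowest was 1807. The interneuron sums were 1.08 to 2.89 in wild type, 0.824 to 1.77 in *Cilk1*-/- and 1.63 to 5.85 in the compound mutant. Any wild-type library and the *Cilk1*-/- library that carries its number deviated from their genotype means in opposite directions, with correlations over all genes of −0.74, −0.89, −0.85 and −0.79 for numbers 1 to 4. Over the 8 members these were −0.54, −0.97, −0.98 and −0.96. The sum of the *Msx1* values of both libraries was 15.1, 15.1, 15.0 and 15.0 for the 4 numbers, although *Msx1* itself ranged from 7.27 to 7.78 in each genotype. These libraries are therefore not independent of each other in the deposited values, the source of this was not tested, and the p-values below assume independence.

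**Figure D2:**
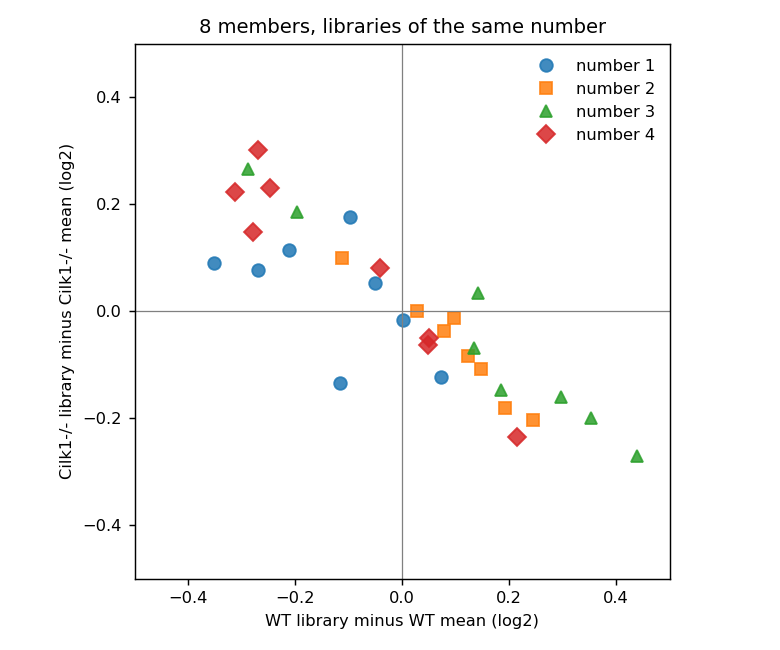
Deviation of each member from its genotype mean (log2) in the wild-type library, on the horizontal axis, and in the *Cilk1*-/- library of the same number, on the vertical axis. Each symbol is a gene in a pair of libraries (8 genes, 4 numbers), and the points fall from upper left to lower right, with correlations of −0.54 to −0.98.

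The loss of *Cilk1* alone was compared with wild type first. None of the 8 members was called (0 of 8, limma, adjusted p under 0.05 by Benjamini-Hochberg over all genes and a fold change of at least 1.5), where 0.37% of all genes were. At an unadjusted p under 0.05, 0 members were higher and 0 lower, where 9.57% and 11.1% of all genes were. The lowest adjusted p among the members was 0.367, for *Dlx3*. Of the members, 4 had a higher and 4 a lower mean, and the median size of the log2 difference was 0.22, against 0.083 over all genes. The SD within wild type was also larger for the members, with a median of 0.23 against 0.075 for all genes.

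*Msx2* was the member that differed most in *Cilk1*-/-. Its values were 3.47, 3.83, 3.73 and 3.32 in wild-type replicates 1 to 4, and 3.99, 3.92, 4.16 and 4.42 in *Cilk1*-/- replicates 1 to 4. All 4 mutant libraries lay above all 4 wild-type libraries. Non-overlap of this kind was found for 1 member higher and 0 lower, against 10.2% and 10.7% of all genes. The log2 fold change was 0.54 (SE 0.33, 95% interval −0.20 to 1.27, adjusted p = 0.394, limma). The exact permutation test, two-sided, gave p = 0.0286, which is the smallest p that 4 against 4 libraries can give. The difference between libraries of the same number was 0.52, 0.089, 0.43 and 1.11. With only the 2 genotypes in the fit the adjusted p was 0.0299 (limma), and without compound mutant replicate 3, in which *Msx2* stood at 5.30, it was 0.0435. The fold change of 1.45 stayed under 1.5 in both, so that *Msx2* was not called. The neuron and Schwann cell sums given above were also higher in all 4 *Cilk1*-/- libraries, and their part in the *Msx2* values was not tested.

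*Msx1* was at 7.51 ± 0.21 in *Cilk1*-/- and 7.56 ± 0.22 in wild type (SD, n = 4), a log2 fold change of −0.05 (95% interval −0.50 to 0.40). The groups covered the same range. *Dlx3* had means of 4.21 and 4.58, with a log2 fold change of −0.37 (SE 0.22, 95% interval −0.86 to 0.11). Its *Cilk1*-/- libraries reached from 4.05 to 4.30 and the wild-type libraries from 4.23 to 4.88, so that only their edges overlapped. *Dlx5* was at 5.05 ± 0.20 against 4.76 ± 0.28 (SD, n = 4), with a log2 fold change of 0.29 (95% interval −0.29 to 0.87), and *Dlx6* at 2.46 ± 0.19 against 2.25 ± 0.23. For *Dlx1*, *Dlx2* and *Dlx4* the log2 fold changes were 0.13, −0.15 and −0.23, each with an interval on both sides of 0. The interval of each of the 8 genes included 0, so that neither a difference nor its absence was shown.

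**Figure D3:**
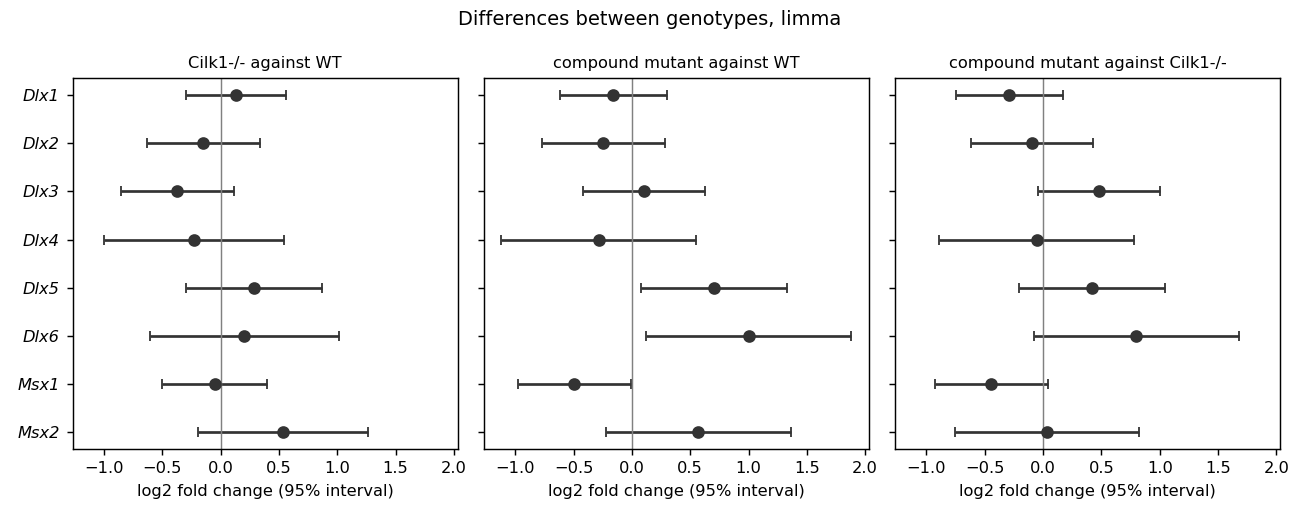
Log2 fold change of each member (horizontal axis) in the 3 comparisons between genotypes, with 95% intervals from limma. Intervals for *Dlx5* (0.71), *Dlx6* (1.003) and *Msx1* (−0.50) in the compound mutant against wild type do not include 0, but their adjusted p-values were 0.149, 0.145 and 0.180.

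The compound mutant was then compared with wild type, where the distal *Shh* enhancers are lost as well. Again 0 of the 8 members were called, against 1.25% of all genes. With the set of libraries as a term, 0 members were called as well, and the number of all genes called fell from 209 to 18. At an unadjusted p under 0.05, 2 members were higher and 1 was lower, against 12.9% and 13.8% of all genes. For 0 members did the genotypes separate in either direction, against 8.92% of all genes higher and 9.05% lower. Over the members the median size of the log2 difference was 0.39, against 0.10 over all genes, and 25.0% of members and 3.66% of all genes had means more than 1.5-fold apart.

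*Dlx5* was at 4.84, 4.65, 5.12 and 4.45 in wild-type replicates 1 to 4, and at 5.73, 4.64 and 6.04 in compound mutant replicates 1 to 3. Replicates 1 and 3 of the compound mutant were above all 8 libraries of the other genotypes, and replicate 2 was within the wild-type range. The log2 fold change was 0.71 (SE 0.28, 95% interval 0.08 to 1.33, adjusted p = 0.149, limma). *Dlx6*, its neighbour, was at 2.16, 2.45, 2.44 and 1.97 in wild type and at 4.42, 2.16 and 3.19 in the compound mutant. The same libraries were high, and the higher of the 2 was now replicate 1. The log2 fold change was 1.003 (SE 0.40, 95% interval 0.12 to 1.88, adjusted p = 0.145, limma), and it was 0.42 without replicate 1 (adjusted p = 0.352). *Msx1* was at 7.51, 7.68, 7.27 and 7.78 in wild type and at 6.72, 7.67 and 6.80 in the compound mutant. Here replicates 1 and 3 were below all 8 libraries of the other genotypes, and replicate 2 was again within the wild-type range. The log2 fold change was −0.50 (SE 0.22, 95% interval −0.98 to −0.01, adjusted p = 0.180, limma).

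For these 3 genes the outcome depended on which compound mutant libraries were in the fit. Replicate 2 was within the wild-type range for each of them, so that leaving it out had to widen each difference. The compound mutant libraries then left, replicates 1 and 3, are those that stood apart. Without replicate 2, *Dlx5* had a log2 fold change of 1.12 (adjusted p = 0.00464) and *Dlx6* of 1.55 (adjusted p = 0.00795, limma). *Msx1* had −0.80 (adjusted p = 0.00922, limma), and all were called. The number of all genes called rose from 209 to 671 in that fit. In the other direction, the log2 fold change of *Dlx5* was 0.42 without replicate 3 (adjusted p = 0.332) and that of *Msx1* was −0.32 without replicate 1 (adjusted p = 0.433, limma). In replicate 2 the cartilage and neuron sums were 44.0 and 33.1, and its bone marker sum was the highest of the 11 libraries, 326 against 101 to 242 elsewhere. The part of these tissues in the values was not tested. In a bulk library, fewer cells of a kind and less RNA in each cell cannot be told apart.

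*Msx2*, with a mean of 4.16 ± 0.99 (SD, n = 3), was at 3.60, 3.56 and 5.30 in the compound mutant. Replicate 3 alone was high, and without it the log2 fold change from wild type went from 0.57 to −0.0023. *Dlx4* was at 0.88, 1.01 and 2.70, with replicates 1 and 2 below and replicate 3 above all 8 libraries of the other genotypes. Without replicate 3 its log2 fold change was −0.87 (adjusted p = 0.0310, limma). *Dlx3* was at 4.22, 4.48 and 5.37, and its log2 fold change of 0.11 became −0.23 without replicate 3. *Dlx1* was at 4.79, 5.83 and 5.73 and *Dlx2* at 4.89, 5.89 and 6.18, so that replicate 1 alone was low for this pair. Their log2 fold changes from wild type, −0.16 and −0.24, became 0.17 and 0.14 without replicate 1. No direction can therefore be given for *Dlx1*, *Dlx2*, *Dlx3*, *Dlx4* or *Msx2* in the compound mutant.

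Counted by library, replicate 1 lay outside the range of the 8 wild-type and *Cilk1*-/- libraries for 6 of 8 members (2 above, 4 below), replicate 2 for 1 (below) and replicate 3 for 7 (6 above, 1 below). Over all genes the shares were 54.2%, 39.5% and 46.3%. Replicates 1 and 3 went the same way for *Dlx5*, *Dlx6* and *Msx1*, and opposite ways for *Dlx2* and *Dlx4*. The SD in the compound mutant was 0.53 for *Msx1* and 1.13 for *Dlx6*, its lowest and highest among the members, against a median of 0.13 for all genes.

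**Figure D4:**
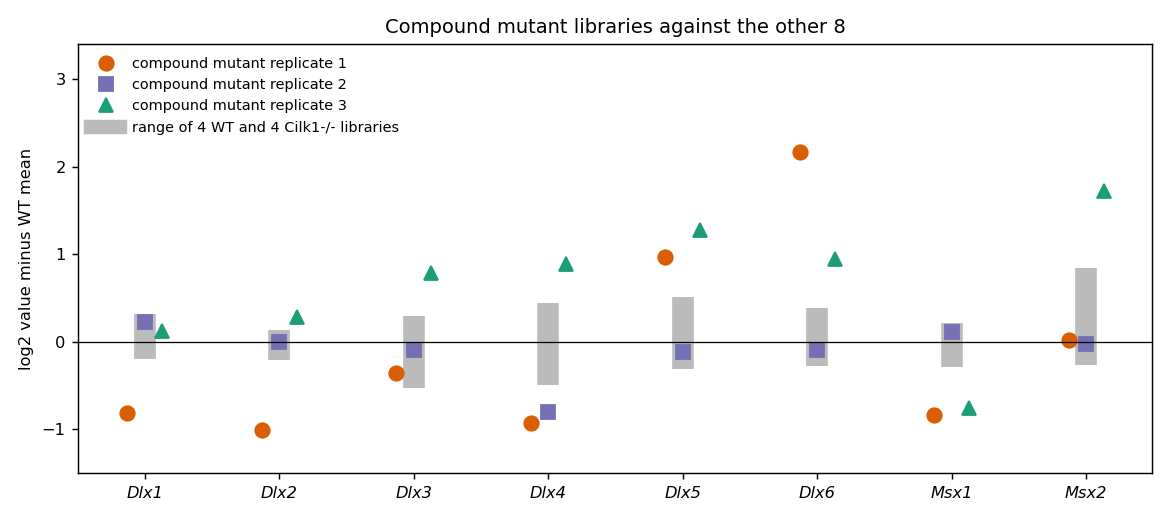
Difference of each compound mutant library from the wild-type mean (log2, vertical axis) for the 8 members, with the range of the 8 wild-type and *Cilk1*-/- libraries in grey. Replicates 1 and 3 lie above the grey range for *Dlx5* and *Dlx6* and below it for *Msx1*, and replicate 2 lies outside it only for *Dlx4*.

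The compound mutant was compared with *Cilk1*-/- to ask what the enhancer deletion added. In this comparison 0 of 8 members were called, against 0.543% of all genes. With the set of libraries as a term the number of all genes called fell from 91 to 1, with 0 members among them. At an unadjusted p under 0.05, 0 were higher and 0 lower, against 10.9% and 12.3%. The genotypes separated for 0 members in either direction, against 7.74% of all genes higher and 9.3% lower. The log2 fold changes were 0.80 for *Dlx6* (95% interval −0.08 to 1.68), 0.48 for *Dlx3* (95% interval −0.04 to 1.003), 0.42 for *Dlx5* (95% interval −0.21 to 1.05) and −0.44 for *Msx1* (95% interval −0.93 to 0.04). Without compound mutant replicate 2, *Dlx6* (1.35, adjusted p = 0.0239), *Dlx5* (0.83, adjusted p = 0.0259) and *Msx1* (−0.75, adjusted p = 0.0215, limma) were called here as well. The number of all genes called, 91 in the main fit, also moved above and below that value when single libraries were left out. Its range is given in the closing section. Its value without replicate 2 is not set beside these calls, which are therefore not read as particular to the members. Without replicate 1, *Dlx6* was at 0.22 and *Msx1* at −0.27, and without replicate 3, *Dlx3* and *Dlx5* were at 0.14 and 0.13, none of which passed. The difference was 0.03 for *Msx2* (95% interval −0.76 to 0.83). Both comparisons of the compound mutant share its 3 libraries, and their values are given side by side only.

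Antisense transcripts of the loci are given beside the members. *Dlx6os1*, the antisense RNA of the *Dlx5* and *Dlx6* locus, shares no exonic base with either gene. It was at 1.79, 1.94, 2.80 and 1.15 in wild type and at 4.17, 1.53 and 4.28 in the compound mutant, where replicates 1 and 3 were high, as for *Dlx5* and *Dlx6*. Its log2 fold change was 1.41 (SE 0.62, adjusted p = 0.182, limma). *Msx1os* was at 5.60, 5.43, 5.10 and 5.64 in wild type and at 4.71, 5.44 and 4.64 in the compound mutant, low in replicates 1 and 3 like *Msx1*. Its RefSeq span covers 53.4% of that of *Msx1*, and since the counting is not stated to use strand, reads of the 2 transcripts cannot be told apart. *Dlx1as* shares 335 bp, or 6.21%, of the exonic length of *Dlx1*. It was at 6.03 ± 0.33 in *Cilk1*-/- against 6.70 ± 0.48 in wild type (SD, n = 4), with a log2 fold change of −0.67 (SE 0.31, adjusted p = 0.247, limma).

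Of the nearest named genes on each side of the 5 loci, 9 of 10 were listed. None of these 9 passed an adjusted p of 0.05 in any comparison (0 of 9, limma). The lowest unadjusted p was that of *Itga3*, an integrin subunit gene 43317 bp from *Dlx3*, at 0.0166 in *Cilk1*-/- against wild type, with a log2 fold change of −0.21. *Cytl1*, 80664 bp from *Msx1*, encodes a secreted protein of cartilage. It was at 0.20 ± 0.19 (SD, n = 4) in wild type and at 2.39 ± 2.51 (SD, n = 3) in the compound mutant (adjusted p = 0.138, limma). *Shfm1* (*Sem1*), next to *Dlx6*, differed by −0.05 in the same comparison, and *Acn9* (*Sdhaf3*), next to *Dlx5*, by −0.25 (adjusted p = 0.656 and 0.191, limma).

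The members were also compared with each other across the libraries. Over the 11 libraries, *Dlx5* and *Msx1* had the largest correlation in size, Pearson r = −0.95, and *Dlx6* and *Msx1* had −0.85. The neighbours *Dlx5* and *Dlx6* had 0.78, *Dlx3* and *Dlx4* 0.80, and *Dlx1* and *Dlx2* 0.75. Over the 9 libraries left without compound mutant replicates 1 and 3, *Dlx5* with *Msx1* was at −0.88, *Dlx6* with *Msx1* at −0.52, *Dlx5* with *Dlx6* at 0.66 and *Dlx3* with *Dlx4* at 0.58, whereas *Dlx1* with *Dlx2* turned to −0.40. The last pair was thus held together by compound mutant replicate 1, without which r was −0.25. These values describe the libraries, and the points share genotype and the mirrored wild-type and *Cilk1*-/- libraries.

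**Figure D5:**
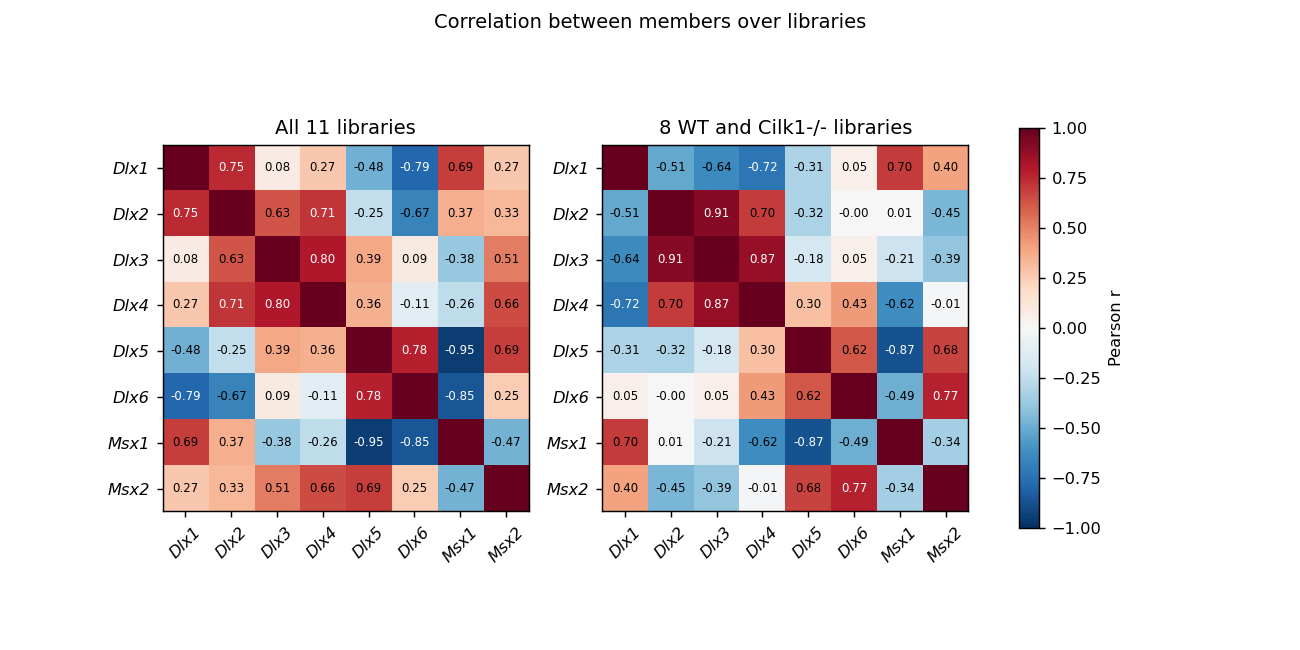
Pearson r between members over all 11 libraries (left) and over the 8 wild-type and *Cilk1*-/- libraries (right), with the colour scale from −1 to 1. *Dlx5* and *Msx1* are opposed in both (−0.95 and −0.87), *Dlx3* and *Dlx4* are alike in both (0.80 and 0.87), and *Dlx1* and *Dlx2* change sign (0.75 and −0.51).

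The genes whose pattern over the 11 libraries was most like that of a member were sought among 13028 genes with a mean of at least 1. Each r is thus among the highest of many, over libraries that include compound mutant replicates 1 and 3, which stood apart. Over the 8 wild-type and *Cilk1*-/- libraries alone, r for the same genes ran from 0.80 (*Pde4b* with *Dlx2*) to 0.99 (*Anxa3* with *Dlx4*). For *Msx1* they were *AI606473* (r = 0.97), *Tfap2b*, an AP-2 transcription factor (0.97), and *Lhx6*, a LIM homeobox gene of the dental mesenchyme (0.96). *Lhx6* was at 4.91, 6.16 and 5.24 in the compound mutant and between 5.92 and 6.25 in wild type. That it had the same low libraries as *Msx1* follows from its choice by correlation. For *Dlx5* they were *Cdkl2* (0.99), a kinase gene, *Nacc2* (0.97) and *Pcdhb20* (0.97), a protocadherin. For *Dlx6* they were *Zfhx3*, a zinc finger and homeobox factor, *Sorbs2* and *Hapln1*, each with r = 0.99. *Hapln1*, which links proteoglycans of cartilage, is on the cartilage list used above. For *Msx2* they were *Dok5* (0.97), *Map3k1* (0.97) and *Tchh* (0.97), which encodes trichohyalin of hair follicles. For *Dlx1* they were *Nedd9* (0.97), *Naalad2* (0.95) and *Lonrf3* (0.95), for *Dlx2* *Pde4b* (0.96), *Cnn2* (0.96) and *Enc1* (0.94), for *Dlx3* *Lrrn2* (0.95), *B4galnt1* (0.95) and *Vit* (0.93), and for *Dlx4* *Pcyt1a* (0.97), *Anxa3* (0.97) and *Slc39a8* (0.96).

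Other homeobox genes of tooth and jaw were described beside the members, from a list of 22 of which 21 were listed. In the compound mutant against wild type, 2 were higher and 1 lower at an adjusted p under 0.05, where 2.82% of all genes were higher and 3.75% lower. *Shox2* fell from 4.30 ± 0.13 (SD, n = 4) to 3.24 ± 0.47 (SD, n = 3), with a log2 fold change of −1.06 (adjusted p = 0.0116, limma). *Isl1* rose by 0.95 (adjusted p = 0.0190) and *Gsc* by 0.63 (adjusted p = 0.0379, limma). *Isl1* was low, at 0.45 ± 0.15 (SD, n = 4) in wild type, where adding 1 to the value understates a fold change, and with a pseudocount of 0.1 its log2 fold change was 1.89. In compound mutant replicates 1 to 3 *Isl1* was at 1.97, 1.05 and 1.21, and the neuron sums there were 210.0, 33.1 and 61.8. It was at 0.82 ± 0.13 (SD, n = 4) in *Cilk1*-/-, where neuron sums were also above those of wild type. The part of the neuron sums in the *Isl1* values was not tested. *Shox2* was at 3.06, 3.77 and 2.88 in compound mutant replicates 1 to 3 and between 4.19 and 4.47 in wild type, without overlap, and replicates 1 and 3 were again the lowest. In *Cilk1*-/- against wild type, *Prrx2* had a log2 fold change of −0.38 (adjusted p = 0.0784, limma). Between the compound mutant and *Cilk1*-/-, 0 genes passed in either direction (limma), and 4 were higher and 4 lower at an unadjusted p under 0.05, against 10.9% and 12.3% of all genes. The median log2 fold change of the list was −0.08 in the compound mutant against wild type, where that of all genes was 0.00.

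Bmp signals act on both Msx genes, and 21 of 21 genes of this list were listed. In the compound mutant against wild type, 2 were higher and 0 lower at an adjusted p under 0.05, against the same 2.82% and 3.75% of all genes. *Bmp2*, a ligand, rose from 2.17 ± 0.11 (SD, n = 4) to 3.12 ± 0.59 (SD, n = 3), a log2 fold change of 0.95 (adjusted p = 0.0302, limma). It was at 2.77, 2.80 and 3.80 in compound mutant replicates 1 to 3, and without replicate 3 the log2 fold change was 0.61 (adjusted p = 0.00987, limma). *Smad6*, an inhibitor induced by the pathway, rose by 0.35 (adjusted p = 0.0299, limma). *Id1*, a target, had a log2 fold change of 0.42 against *Cilk1*-/- (adjusted p = 0.0527). *Bmp4*, which acts with *Msx1* in the mesenchyme, had a log2 fold change of −0.29 in *Cilk1*-/- against wild type (adjusted p = 0.174, limma), and no gene of the list passed in that comparison. At an unadjusted p under 0.05, 1 was higher and 1 was lower there, against 9.57% and 11.1% of all genes.

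Of the 11 partners of *Msx1* in bud mesenchyme, 0 were higher and 2 lower in the compound mutant than in wild type at an adjusted p under 0.05, and 0 were higher and 3 lower than in *Cilk1*-/-. Of all genes, 2.82% and 3.75% passed in the first comparison and 1.18% and 2.15% in the second. *Inhba*, the activin subunit, fell by 0.71 from wild type (adjusted p = 0.0133) and by 0.86 from *Cilk1*-/- (adjusted p = 0.0101, limma). *Dkk2*, a secreted Wnt inhibitor, fell by 0.65 (adjusted p = 0.0244) and by 0.89 (adjusted p = 0.0125, limma). *Runx2*, an osteogenic factor of the mesenchyme, fell by 0.50 from *Cilk1*-/- (adjusted p = 0.0417, limma). *Inhba* was at 4.10, 4.62 and 4.38 in the compound mutant and between 4.89 and 5.38 in the other 8 libraries, and was thus low in all 3, replicate 2 included. In *Cilk1*-/- against wild type, 0 genes passed (limma), with *Osr2* at −0.40 (adjusted p = 0.0754) and *Pax9* at −0.26 (adjusted p = 0.104), and 0 were higher and 4 lower at an unadjusted p under 0.05, against 9.57% and 11.1% of all genes.

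The endothelin axis, which turns on *Dlx5* and *Dlx6* in the lower jaw, had 7 of its 9 genes listed, and *Hand1* and *Hand2* were not among them. *Mef2c*, its transcriptional effector, rose by 0.31 in *Cilk1*-/- (adjusted p = 0.0299, limma), where 1.06% of all genes were higher and 1.38% lower at this threshold, and *Gsc*, a target given above, was the gene that passed in the compound mutant. In the compound mutant *Mef2c* had a log2 fold change of 0.06 against wild type (adjusted p = 0.581) and of −0.25 against *Cilk1*-/- (adjusted p = 0.0607, limma), and its 3 libraries, at 3.03 to 3.21, lay below all 4 *Cilk1*-/- libraries, at 3.25 to 3.45. *Edn1*, the ligand, had a log2 fold change of −0.23 in the compound mutant against wild type (adjusted p = 0.0514, limma). *Fgf8* was at 0.22 ± 0.07 in *Cilk1*-/- and at 0.53 ± 0.14 in wild type (SD, n = 4, adjusted p = 0.0675, limma). Both levels are low, where adding 1 to the value understates a fold change. Leaving out any single library, *Shox2* and *Inhba* in the compound mutant and *Dkk2* against *Cilk1*-/- kept an adjusted p under 0.05 (limma). *Mef2c* lost it when any 1 of the 8 wild-type and *Cilk1*-/- libraries was left out, at log2 fold changes of 0.28 to 0.35. Among the compound mutant libraries, *Gsc* and *Runx2* lost it without replicate 1 (adjusted p = 0.0928 and 0.0869), and *Smad6* without replicate 3 (adjusted p = 0.0511, limma). *Bmp2*, *Isl1*, *Gsc*, *Smad6* and *Dkk2* against wild type lost it without 1 or more wild-type libraries, and *Runx2* without any 1 of the 8 wild-type and *Cilk1*-/- libraries. With the replicate number as a block, none of the genes of these 4 lists that passed did so, and their adjusted p-values were between 0.0758 and 0.192. With the set of libraries as a term, none of those named here did so either, with adjusted p-values between 0.0658 and 0.288 (limma). The part of the neuron and Schwann cell sums in the *Mef2c* value was not tested.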

How the data were processed

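Poly-A RNA of maxillary molar germs was sequenced by the authors. The submitters' processing notes name the mm10 genome, HISAT2 2.0.5 and featureCounts 1.5.0-p3. The log2 values deposited by the authors are log2(value + 1) of a length-normalized value, probably FPKM; 257 genes have a value below 0, for which no step is given in the sources used here. On the linear scale the libraries sum to 339971 to 364616. Read counts were not used here and the depth is unknown, which is why limma replaced a count model, and the spread among libraries sets the precision.

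Differences were tested with limma 3.58.1 in R 4.3.3 (lmFit, eBayes with trend and robust), in one fit of the 11 libraries with genotype alone and all 16755 genes, by Benjamini-Hochberg. A call took an adjusted p under 0.05 together with a 1.5-fold or larger change. "Passed" means the adjusted p alone. The fit was tested on simulated data. Summed marker levels are sums of 2 to the log2 value, minus 1, with values below 0 set to 0.

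The members and lists were chosen with earlier results of these data known. Genes named are the members, listed neighbours and antisense transcripts, list genes with an adjusted p under 0.05 or the 2 lowest p, the 3 genes most correlated with each member, and *Cilk1*. *Lhx6* values, shown by library, were looked at after its correlation was known. Alternatives were other fits, scalings, filters, thresholds and leaving out each library. Protein sequences were not used here. Python 3.11.15, pandas 2.3.3 and matplotlib 3.10.9 made the summaries and plots. Certain items are not reported here.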

Additional observations from a re-analysis of the deposited data

How the results depend on the processing

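Over the 480 values of 8 members, 3 comparisons and 20 alternatives, 455 kept direction and side of the threshold, 16 reversed and 9 newly passed. No member was called under any scaling, filter, pseudocount or block. At an unadjusted p under 0.05 with no fold change, 3 members differed in the compound mutant against wild type. Of all genes, 12.9% were higher and 13.8% lower at that threshold. The lowest adjusted p of a member there was 0.145 (limma). Leaving out a library gave 0 to 3 members called against wild type and 0 to 3 against *Cilk1*-/-, with 3 only without compound mutant replicate 2.

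Without single libraries, the log2 fold change of *Msx1* in *Cilk1*-/- ran from −0.15 to 0.026. In the compound mutant against wild type the ranges were −0.35 to 0.17 for *Dlx1*, −0.50 to 0.14 for *Dlx2*, −0.23 to 0.34 for *Dlx3*, −0.87 to 0.039 for *Dlx4* and −0.0023 to 0.87 for *Msx2*. Against *Cilk1*-/- they were −0.48 to 0.039 for *Dlx1*, −0.36 to 0.28 for *Dlx2*, −0.64 to 0.27 for *Dlx4* and −0.54 to 0.33 for *Msx2*. The cause was not tested.

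For the 12 passing results of list genes, 144 of 239 alternatives kept the adjusted p under 0.05, 95 did not and 0 reversed.

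The counts of all genes called were 62 in *Cilk1*-/- against wild type, 209 in the compound mutant against wild type and 91 against *Cilk1*-/-. In the same order they were 4, 26 and 2 with the replicate block, which assumes that libraries with equal numbers shift together. They were 4, 0 and 0 with the compound mutant placed in the block of number 4, which was added after the data had been seen. A term for the library set that the labels give yielded 37, 18 and 1, only the 2 genotypes compared 130, 34 and 1, and a pseudocount of 0.1 gave 123, 547 and 294. With no fold change, 409, 1102 and 558 genes passed the adjusted p, and 3467, 4470 and 3882 an unadjusted p under 0.05. Leaving out a library gave 15 to 95, 80 to 671 and 36 to 360. The replicate block left 0 members called in each comparison. Equal numbers tie the wild-type and *Cilk1*-/- libraries with correlations of −0.74 to −0.89, opposite in sign to the shared shift that a block assumes.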
